A study of Mus musculus with 16 samples.

Results

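The beta-adrenergic receptors and the cAMP machinery behind them were followed here as 9 genes: the receptor genes Adrb1 and Adrb3, the stimulatory G protein gene Gnas, the adenylyl cyclase genes Adcy4 and Adcy6, the protein kinase A (PKA) gene Prkaca, and the desensitisation genes Grk2, Arrb1 and Arrb2. The 9 were chosen by name, with earlier results of these data known. Their counts were the sums over all transcripts of each gene, out of 54193 genes named in the files. RNA was sequenced from primary cultures of mouse brain microvascular endothelial cells (mBMEC) of adult mice, aged 8 to 10 weeks, with Pdcd10 fl/fl alleles and the inducible Cre transgene Cdh5(PAC)-CreERT2. Each culture came from a pool of brains, and the Cre was driven by the endothelial Cdh5 promoter. All 16 libraries carry the same floxed Pdcd10 (Ccm3) alleles and the same Cre transgene. In the KO group the alleles were recombined with 4-hydroxytamoxifen, which the WT cultures did not receive, so that loss of Pdcd10 and exposure to this compound cannot be told apart. The cells were left untreated (WT, n = 3; KO, n = 3), or were given 10 µM propranolol (WT+P, n = 2; KO+P, n = 3) or 100 nM rapamycin (WT+R, n = 2; KO+R, n = 3) for 24 h.

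Beta-adrenergic receptors bind adrenaline and noradrenaline and activate the G protein subunit encoded by Gnas, which turns on adenylyl cyclases. The cAMP they make releases the catalytic subunits of PKA, which phosphorylate targets that include the transcription factor CREB. Active receptors are then marked by the kinase GRK2 and bound by the beta-arrestins, which uncouple them from the G protein and help to internalise them. Propranolol blocks beta receptors, and rapamycin inhibits the kinase complex mTORC1.

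The libraries held summed counts of 18.8 to 26.2 M. Endothelial markers summed to 3023–6952 TPM (an abundance scale that allows for transcript length), with 8 of 8 above 1 TPM on average. Of 8 mural cell markers only Acta2 passed 1 TPM, and the astrocyte, microglia and oligodendrocyte lists each summed to 4.95 TPM or less in every library. The fibroblast list had 4 of 6 genes at 1 TPM or more on average and summed to 2.03–60.1 TPM, with overlapping ranges in all groups. Pdcd10 lay at 7.83–16.7 counts scaled to library size (CPM) in the 9 KO libraries and at 27.7–60.8 CPM in 6 of the 7 WT libraries. In the library labelled WT replicate 1 it was 11.5 CPM, the level of the KO libraries, which goes against the label. The 3 other cAMP pathway genes called for KO vs WT averaged over treatments were mixed in that library. That fit counted the library as WT, and the same 3 were called again when it was left out. Rapgef4 was 45.3 CPM and Pde4a 23.4 CPM, outside the untreated KO ranges (60.1–64.7 and 17.8–18.5 CPM) on the WT side. Gnai1 was 26.5 CPM, within the untreated KO range of 24.1–38.2 CPM. The genotype of the library labelled WT replicate 1 was not tested. Where leaving out this library changed a call, the value or count without it is given. In these bulk samples, fewer cells of a type and less RNA per cell cannot be told apart.

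Among the 9 genes, Gnas was by far the most abundant and both receptor genes were close to the limit of detection. In untreated WT cells the mean level was 1752 TPM for Gnas, 96.7 TPM for Adcy4, 91.7 TPM for Arrb1, 86.1 TPM for Prkaca and 83.8 TPM for Grk2. Adcy6 followed at 24.99 TPM and Arrb2 at 11.1 TPM. Adrb3 stood at 0.512 TPM and Adrb1 at 0.126 TPM. The ranges of the 3 WT libraries overlapped between Adcy4 and Arrb1, between Arrb1 and Prkaca, between Prkaca and Grk2, and between Adrb3 and Adrb1. All other neighbours in this order were separate in WT cells.

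**Figure D1:**
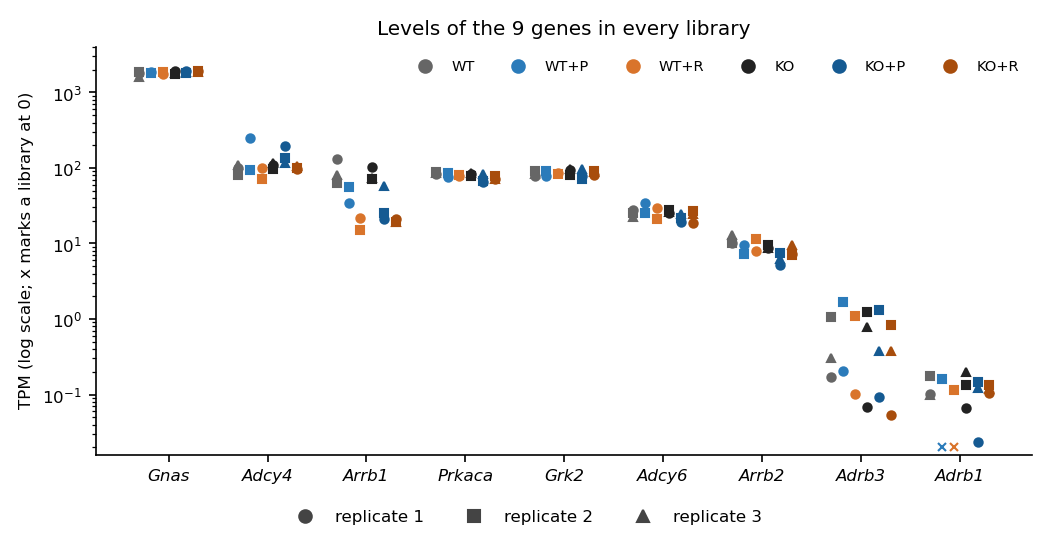
Level of each of the 9 genes in every library, in TPM on a log axis, ordered by the mean in WT cells; colour gives the group, marker shape the replicate number, and a cross a library with 0 counts. Gnas lies at 1616 TPM or more in all 16 libraries, whereas Adrb1 and Adrb3 stay below 2 TPM.

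The receptor genes were examined first. Adrb1, the receptor that dominates in the heart, gave 71 counts over all 16 libraries. Its counts were 4, 8 and 4 in WT, 0 and 7 in WT+P, 0 and 5 in WT+R, 3, 6 and 8 in KO, 1, 6 and 4 in KO+P, and 4, 6 and 5 in KO+R (replicates in numerical order). The 2 libraries at 0 allow up to 3 counts, and this limit covers counting error only. Adrb1 did not pass the filter on low counts and was not tested.

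Adrb3, the receptor best known from adipose tissue, gave 309 counts in total. Its counts were 5, 47 and 8 in WT, 5 and 57 in WT+P, 3 and 29 in WT+R, 3, 39 and 22 in KO, 4, 38 and 12 in KO+P, and 2, 20 and 15 in KO+R. The groups overlapped throughout, and the counts ran with the replicate number instead. They were 2–5 in the 6 replicate 1 libraries, 8–22 in the 4 replicate 3 libraries and 20–57 in the 6 replicate 2 libraries. No difference in Adrb3 between groups passed the test. Fitted log2 differences lay between −0.67 and 0.68, with standard errors (SE) of 1.17 to 1.32 in the 5 pairwise comparisons. With the replicate number as a block they lay between −0.59 and 0.63, with SE of 0.42 to 0.50. Between libraries of the same number, the log2 ratio of rapamycin to untreated cells was −0.78 and −0.49 in WT. In KO it was −0.13, −0.85 and −0.55, all on these few counts. For propranolol the ratios had both signs. The libraries are unstranded, and 44.4% of the exonic bases of Adrb3 are shared with the overlapping gene Gm45470, so that its few counts may belong to either gene. Adrb1 shares 15.7% of its exonic bases with other genes.

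**Figure D2:**
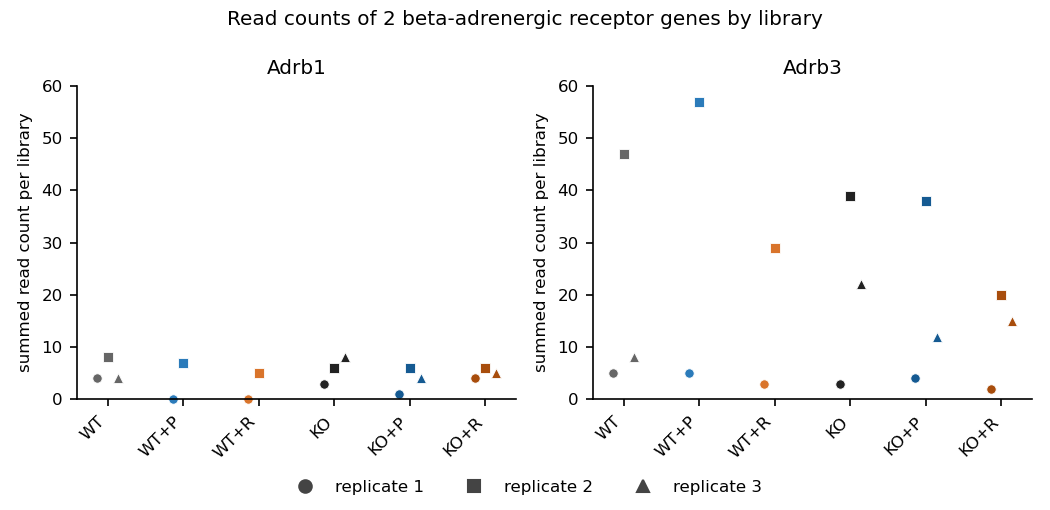
Summed read counts of Adrb1 (left) and Adrb3 (right) in each library, by group, with the replicate number as marker shape. Adrb1 stays at 8 counts or fewer, and Adrb3 reaches 20–57 counts only in the replicate 2 libraries, next to 22 in KO replicate 3.

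The 6 alpha-adrenergic receptor genes were as low, with 8 to 147 counts each over the 16 libraries. Adra2a, which couples to the inhibitory G protein, was the highest at 0.167 TPM on average and the only one to pass the filter. These values cover Adrb1, Adrb3 and the alpha receptor genes, and other beta receptor genes were not analysed here. Among 10 genes for other receptors that couple to Gnas, 4 passed the filter. In untreated WT cells the highest were the adenosine receptor gene Adora2a, at a mean of 12.3 TPM, and Calcrl, the calcitonin receptor-like receptor, at 6.29 TPM.

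Downstream of the receptors, Adcy4, Prkaca and Grk2 had the largest TPM shares of their families. Adcy4 accounted for 78.8% ± 4.84 (SD, n = 16) of the summed TPM of the 10 adenylyl cyclase genes and Adcy6 for 17.8% ± 3.89. Prkaca made up 74.3% ± 2.47 of the PKA catalytic subunit TPM, the rest being Prkacb. Grk2 made up 48.9% ± 3.83 of the receptor kinase TPM, ahead of Grk5 at 24.9% ± 3.77 and Grk6 at 23.8% ± 2.61. Gnas was in the range of Gnai2, an inhibitory G protein subunit, which had a mean of 1535 TPM.

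The main assigned transcripts of Arrb1 and Gnas are protein coding and differ from their shorter forms by a short coding exon. Arrb1 lies on chromosome 7 (chr7:99184470-99256620, plus strand, GRCm39), and 97.8% of its reads were assigned to Arrb1-202, which holds an exon of 24 bases that Arrb1-201 (1.56% of reads, named after its value was seen) lacks. Gnas lies on chromosome 2 (chr2:174126022-174188537, plus strand), and 76.3% of its reads were assigned to Gnas-208, which holds an exon of 45 bases that Gnas-207 (6.57%) lacks. A further 15.3% went to Gnas-225. Both exons are coding and add whole codons, 8 in Arrb1 and 15 in Gnas. They are shown with 20 bases of intron on each side, on the plus strand from the GRCm39 genome, and capitals mark the exon. The Arrb1 exon is at chr7:99246243-99246266 and the Gnas exon at chr2:174178540-174178584.
Arrb1 exon: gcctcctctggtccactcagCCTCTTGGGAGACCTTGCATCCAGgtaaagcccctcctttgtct
Gnas exon: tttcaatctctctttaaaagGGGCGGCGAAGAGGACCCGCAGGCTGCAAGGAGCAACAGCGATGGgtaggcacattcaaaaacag

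The share of Arrb1-202 was 95.4–99.0% of Arrb1 reads in the 16 libraries in treated and untreated cells alike. Gnas-208 ranged from 69.2 to 81.8%. The reads of Adcy4 (chr14:56006514-56021552, minus strand) were assigned to Adcy4-202 (69.2%) and Adcy4-201 (30.0%), and those of Grk2 to Grk2-202 (79.0%) and Grk2-201 (17.8%). Prkaca-201 took 99.99% of the Prkaca reads. For Adcy6, 52.1% of reads went to Adcy6-202, annotated as a retained intron and not as protein coding, and 39.4% to the coding Adcy6-201. Arrb2 was split between Arrb2-204 (65.5%) and Arrb2-205 (19.9%). Transcript shares are estimates of the quantification and carry no test.

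Arrb1, which encodes beta-arrestin 1, was the gene that moved most among the 9. In WT cells it was at 508, 217 and 225 CPM (a scale for comparing libraries for 1 gene), and in WT+R at 90.2 and 52.6 CPM. In KO cells it was at 421, 228 and 272 CPM, and in KO+R at 102, 73.0 and 74.9 CPM. Every rapamycin library lay below every untreated library, in both genotypes. Groups were as separate, in the lower direction, for 14.7% of all genes in WT and 13.2% in KO. Averaged over genotypes, Arrb1 fell by 2.02 on the log2 scale with rapamycin (SE 0.33, edgeR quasi-likelihood test, adjusted p = 0.00286). Between libraries of the same number the log2 ratio of treated to untreated cells was −2.49 and −2.05 in WT and −2.05, −1.64 and −1.86 in KO.

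Calls here are a Benjamini-Hochberg adjusted p under 0.05 over 14838 tested genes with a fold change above 1.5. Of the 8 members tested, Arrb1 was the only one called for rapamycin averaged over genotypes, where 5.29% of all genes were called. It was also the only member called for KO+R vs KO (log2 difference −1.88, SE 0.43, edgeR adjusted p = 0.0471), against 1.51% of all genes. This call was lost whenever any of the 6 libraries was left out (adjusted p 0.0869 to 0.182). For WT+R vs WT, where 1.4% of all genes were called, no member was called: Arrb1 had a log2 difference of −2.15 (SE 0.50, edgeR adjusted p = 0.055). With the replicate number as a block, edgeR called Arrb1 in WT+R vs WT (−2.10, SE 0.45, adjusted p = 0.0202), where 4.56% of all genes passed, and again in KO+R vs KO (−1.86, SE 0.38, adjusted p = 0.0147), where 4.98% did. Without the library labelled WT replicate 1 the WT difference was −1.63 (adjusted p = 0.138), or −1.65 with the block (edgeR adjusted p = 0.0789), and the average over genotypes was −1.75 without the block (edgeR adjusted p = 0.00461). The size of the rapamycin difference was not shown to depend on genotype (interaction 0.27, SE 0.62, edgeR adjusted p = 1).

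Beside this fall, the summed endothelial markers were 5231–6952 TPM in WT and 3385–4024 TPM in WT+R, and 5903–6543 TPM in KO and 4328–5333 TPM in KO+R. These sums were mostly Cldn5, Pecam1 and Cdh5, and not every marker was lower. Kdr was 75.8–102 TPM in KO and 99.1–135 TPM in KO+R, and Flt1 was 41.7–63.3 and 64.7–79.5 TPM. In WT and WT+R the ranges of these 2 genes overlapped. The mural list summed to 28.5–149 TPM in WT and 439–516 TPM in WT+R, and to 20.5–41.9 TPM in KO and 50.9–114 TPM in KO+R, almost wholly through Acta2. Their part in the Arrb1 result was not tested.

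Arrb1 was also low in the propranolol libraries, with more spread. The level was 131 and 175 CPM in WT+P and 90.9, 79.3 and 210 CPM in KO+P. All 5 treated libraries were below all untreated libraries of their genotype, as were 10.3% of all genes in WT and 9.11% in KO. The fitted log2 difference was −1.05 (SE 0.48, edgeR adjusted p = 0.499) in WT and −1.28 (SE 0.42, adjusted p = 0.315) in KO. Averaged over genotypes it was −1.17 (SE 0.32), which did not pass (edgeR adjusted p = 0.0777), and with the replicate block it was −1.08 (SE 0.29) and passed (edgeR adjusted p = 0.0481). Without the library labelled WT replicate 1 the blocked value was −0.89 (adjusted p = 0.120). Between libraries of the same number the log2 ratio ran from −1.96 (replicate 1) to −0.31 (replicate 2) in WT, and was −2.21, −1.53 and −0.38 in KO replicates 1, 2 and 3. Leaving out KO+P replicate 3 took the KO difference to −1.85 (edgeR adjusted p = 0.0424). The interaction with genotype was −0.23 (SE 0.62, edgeR adjusted p = 1). The propranolol and rapamycin comparisons share their untreated libraries. Beside these values, the mural list summed to 153–280 TPM in WT+P against 28.5–149 TPM in WT. In KO+P it summed to 30.3–72.2 TPM against 20.5–41.9 TPM in KO, and these mural sums were mostly Acta2. The endothelial sums were 3023–4875 TPM in WT+P and 3299–5661 TPM in KO+P. Their part in the Arrb1 values was not tested.

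**Figure D3:**
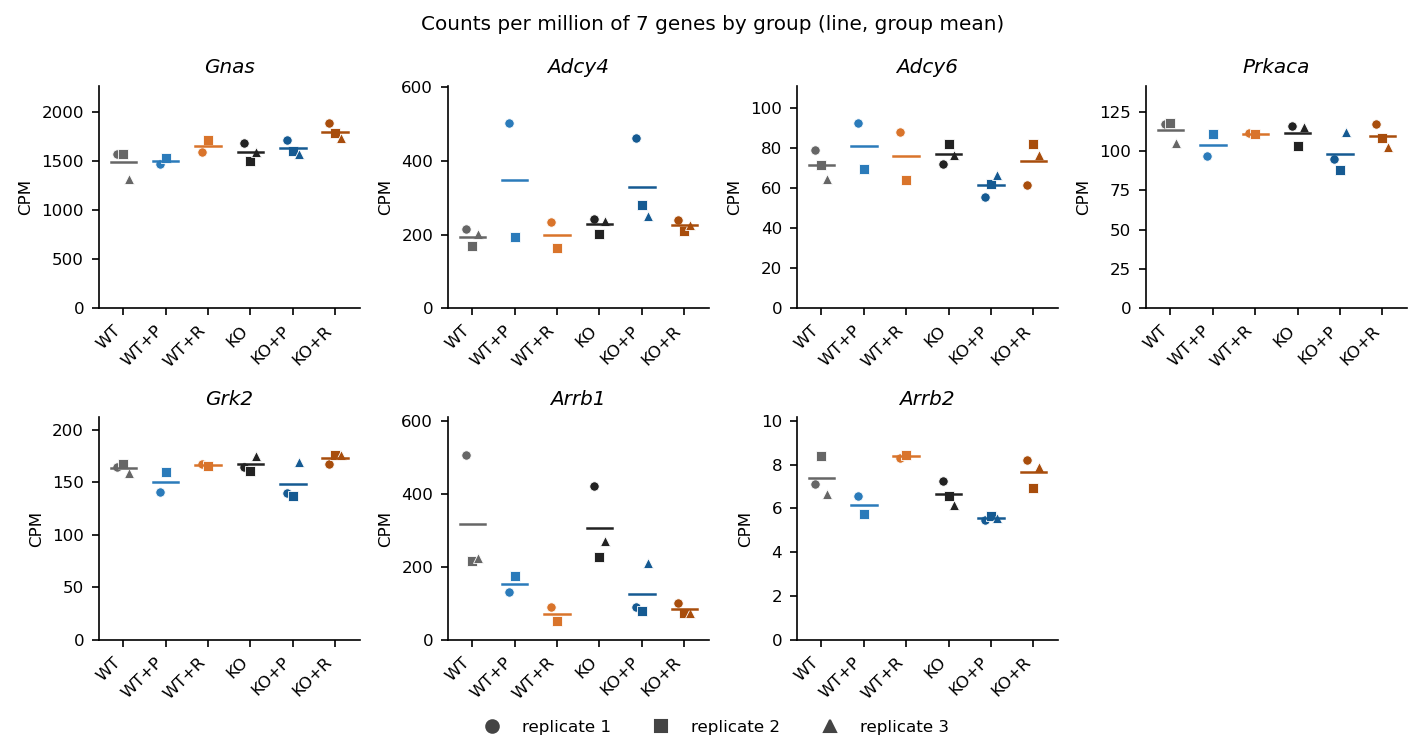
CPM of 7 genes in each library by group, with the replicate number as marker shape and a line at the group mean; every axis starts at 0. Arrb1 is lower in all treated groups than in the untreated cells of the same genotype, and Adcy4 is highest in the replicate 1 libraries of both propranolol groups.

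Arrb2, the gene for the other beta-arrestin, stayed low and within a narrow range, 5.49–8.46 CPM. With propranolol it was 6.56 and 5.75 CPM in WT+P against 6.64–8.40 CPM in WT, and 5.49–5.67 CPM in KO+P against 6.17–7.24 CPM in KO. The groups did not overlap, but the averaged log2 difference of −0.26 (SE 0.12) did not pass the test (edgeR adjusted p = 0.208). Groups that do not overlap were found for 21.2% of all genes in WT+P vs WT and 18.7% in KO+P vs KO. The ratio of Arrb1 to Arrb2 TPM was 8.43 ± 3.82 (SD, n = 3) in WT and 9.34 ± 2.38 (n = 3) in KO, and 2.02 ± 0.96 (n = 2) in WT+R and 2.56 ± 0.47 (n = 3) in KO+R. Arrb1 remained the more abundant arrestin in every library, with 57.2–92.8% of the arrestin TPM.

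Adcy4, the main adenylyl cyclase gene of these cells, was highest in 2 propranolol libraries. It was at 214, 168 and 202 CPM in WT and at 503 and 195 CPM in WT+P. In KO it was at 243, 202 and 238 CPM, and in KO+P at 461, 279 and 249 CPM. The KO and KO+P groups did not overlap (as for 9.58% of all genes in the higher direction), whereas WT+P replicate 2 lay within the WT range. Between libraries of the same number the log2 ratio was 1.23 and 0.21 in WT and 0.92, 0.47 and 0.07 in KO, so that the replicate 1 libraries gave most of the difference. Averaged over genotypes the log2 difference was 0.69 (SE 0.22, edgeR adjusted p = 0.109), and 0.61 (SE 0.16) with the replicate block, which passed (edgeR adjusted p = 0.0465).

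The Adcy4 values rested on the replicate 1 libraries. With replicates 2 and 3 only, an alternative chosen after seeing the data, the averaged difference was 0.17 (edgeR adjusted p = 0.847). With all libraries and without the block, the difference by genotype was 0.84 (SE 0.33, edgeR adjusted p = 0.475) in WT and 0.54 (SE 0.30, adjusted p = 0.467) in KO. Without WT+P replicate 1 the WT difference was −0.00091. Without the library labelled WT replicate 1 the blocked average was 0.54 (edgeR adjusted p = 0.132). The same 2 propranolol libraries had the highest sums of the 4 neuron markers, 19.9 TPM in WT+P replicate 1 and 24.5 TPM in KO+P replicate 1, mostly Tubb3. Summed endothelial markers were 3023–4875 TPM in WT+P and 3299–5661 TPM in KO+P. Their part in the Adcy4 result was not tested. With rapamycin Adcy4 was 163–239 CPM and its averaged log2 difference was 0.0037 (SE 0.22).

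For propranolol averaged over genotypes, no member was called without the block, against 1.58% of all genes, and 2 of 8 (Arrb1 lower, Adcy4 higher) were called with it, against 4.19%. No member was called in WT+P vs WT or KO+P vs KO, where 0.00674% of all genes passed in each. At an unadjusted p under 0.05 (edgeR) there were 2 and 1 of the 8 members, against 9.87% and 12.6% of all genes. With the block edgeR called none in either, against 0.142% of all genes in KO+P vs KO and 0.0809% in WT+P vs WT. DESeq2 with the block called Arrb1 in KO+P vs KO, against 6.29% of all genes, and no member in WT+P vs WT, against 1.06%.

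The other members varied less. Gnas was at 1312–1886 CPM, Adcy6 at 55.4–92.5 CPM, Prkaca at 88.2–118 CPM and Grk2 at 137–176 CPM. For Gnas, Adcy6, Prkaca, Grk2 and Arrb2 the fitted log2 differences lay between −0.33 and 0.20 in all 5 pairwise comparisons. None of them was called in any comparison by edgeR. DESeq2 with the block called 4 members over all 6 groups, Gnas among them (DESeq2 adjusted p = 0.0154). The count over all genes in that fit is listed below. The KO+R libraries had higher Gnas (1729–1886 CPM) than all KO libraries (1503–1683 CPM), a log2 difference of 0.18 (SE 0.12) that did not pass the test. In WT+R, Gnas was 1595 and 1710 CPM against 1312–1573 CPM in WT (0.15, SE 0.13), which did not pass either. Groups were as separate, in the higher direction, for 10.9% of all genes in KO and 14.0% in WT. Adcy6 was 55.4–66.7 CPM in KO+P against 72.2–82.2 CPM in KO (−0.33, SE 0.15), and was not called. Groups were as separate, in the lower direction, for 9.11% of all genes.

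Between KO and WT cells no member differed past the threshold. None of the 8 was called for KO vs WT (0.00674% of all genes), nor for KO vs WT averaged over treatments (1.76%). This held with the replicate block (0.182% and 4.47% of all genes), with DESeq2 (0.431% and 3.71%), and without the library labelled WT replicate 1. The pairwise log2 differences ran from −0.15 (Arrb2) to 0.23 (Adcy4), the latter with an SE of 0.30. At an unadjusted p under 0.05, no member appeared in KO vs WT by edgeR, against 6.07% of all genes. Gnas was the only such member in the average over treatments with the block, at 0.14 (SE 0.06, edgeR adjusted p = 0.189), against 26.5% of all genes. Over all 6 groups, Arrb1 was the only member that differed (edgeR adjusted p = 0.0223), where 7.68% of all genes passed, and again with the block, where 23.2% did.

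**Figure D4:**
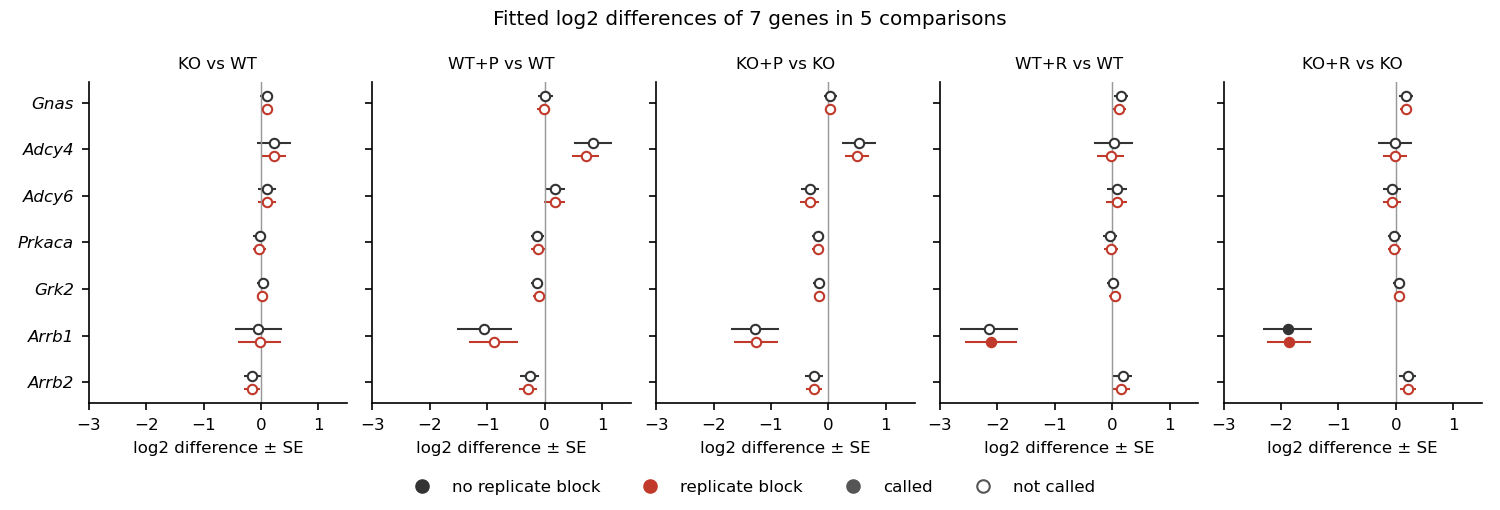
Fitted log2 differences (points) with standard errors (bars) of 7 genes in 5 comparisons, without (dark) and with (red) the replicate number as a block; filled points were called. Arrb1 is filled for KO+R vs KO in both fits and for WT+R vs WT with the block, and all other points are open.

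The wider pathway was read from 12 lists holding 96 other genes, of which 76 passed the filter. The lists were chosen with earlier results of these data known. The share of a list that was called is therefore a description and not an independent test. With propranolol averaged over genotypes 4 of the 76 were called, all higher (1.45% of all genes were called higher), and all 4 were among the 8 CREB target genes listed. These were the nuclear receptor genes Nr4a1, Nr4a2 and Nr4a3, immediate early genes that cAMP can induce, and Dusp1, a phosphatase that switches off MAP kinases. The median log2 difference was 1.29 over the 8 genes and −0.0036 over all genes tested. Not all of the list rose, and Sik1 and Fos overlapped between treated and untreated libraries in both genotypes. Sik1 was 16.7 and 38.4 CPM in WT+P against 16.5–47.9 CPM in WT, and 17.5–35.9 CPM in KO+P against 19.8–36.1 CPM in KO. Fos was 14.4 and 59.2 CPM in WT+P against 5.33–19.7 CPM in WT, and 15.5–24.6 CPM in KO+P against 12.8–23.1 CPM in KO.

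Nr4a1 was at 36.9, 18.8 and 7.99 CPM in WT and at 237 and 71.9 CPM in WT+P. It was at 86.2, 47.7 and 69.3 CPM in KO and at 264, 216 and 212 CPM in KO+P. All treated libraries lay above all untreated libraries of their genotype, as did 10.8% of all genes in WT and 9.58% in KO, and the averaged log2 difference was 2.32 (SE 0.37, edgeR adjusted p = 0.0127). Nr4a2 went from 2.42–4.63 to 13.1–33.0 CPM in WT and from 6.00–8.16 to 23.6–40.2 CPM in KO (2.54, SE 0.33, edgeR adjusted p = 0.00377). Nr4a3 went from 0.299–0.828 to 1.85–9.94 CPM in WT and from 0.303–1.15 to 3.04–6.08 CPM in KO (3.08, SE 0.49, edgeR adjusted p = 0.0121). Dusp1 rose less, by 0.81 (SE 0.17, edgeR adjusted p = 0.0404). When the library labelled WT replicate 1 was left out, the 3 NR4A genes were again called (2.47 to 3.34, edgeR adjusted p 0.0113 to 0.0345) and Dusp1 was not (0.87, edgeR adjusted p = 0.0814), where 0.377% of all genes passed. As for Adcy4, the highest value of each of these genes came from a propranolol library of replicate 1.

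**Figure D5:**
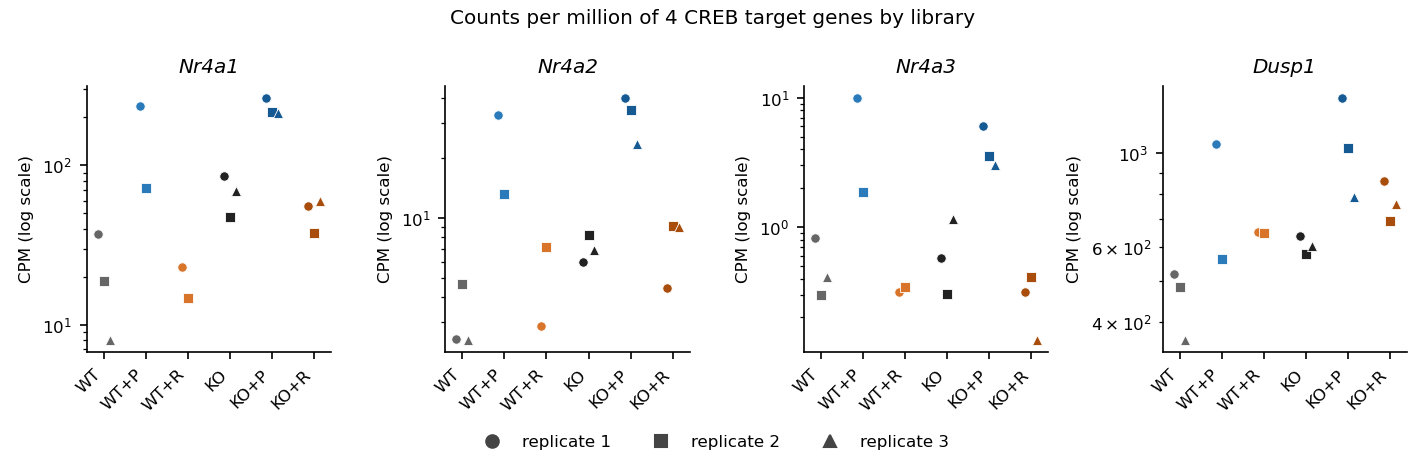
CPM on log axes of Nr4a1, Nr4a2, Nr4a3 and Dusp1 in each library, by group, with the replicate number as marker shape. In each panel all propranolol libraries lie above the untreated libraries of the same genotype, and the highest point is a replicate 1 library.

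The sequences before the starts of the NR4A genes are shown because these genes rose together and belong to the CREB target list. Each is the 250 bases before the RefSeq transcript start (GRCm38.p6), on the gene's strand, and capitals mark TGACG or CGTCA, the core of a CREB site read on either strand. The windows are chr15:101266596-101266845 (plus strand) for Nr4a1, chr2:57124004-57124253 (minus strand) for Nr4a2 and chr4:48045055-48045304 (plus strand) for Nr4a3.
Nr4a1: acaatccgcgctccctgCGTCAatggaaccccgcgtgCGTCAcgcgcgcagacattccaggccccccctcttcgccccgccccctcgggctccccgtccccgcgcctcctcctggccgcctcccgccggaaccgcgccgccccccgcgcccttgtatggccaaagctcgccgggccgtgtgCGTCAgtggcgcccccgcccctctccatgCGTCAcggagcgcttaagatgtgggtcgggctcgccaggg
Nr4a2: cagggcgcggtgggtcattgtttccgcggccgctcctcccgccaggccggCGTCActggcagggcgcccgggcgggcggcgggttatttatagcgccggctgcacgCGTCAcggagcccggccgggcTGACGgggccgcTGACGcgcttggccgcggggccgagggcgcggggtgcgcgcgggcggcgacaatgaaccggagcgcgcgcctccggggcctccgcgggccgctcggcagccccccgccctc
Nr4a3: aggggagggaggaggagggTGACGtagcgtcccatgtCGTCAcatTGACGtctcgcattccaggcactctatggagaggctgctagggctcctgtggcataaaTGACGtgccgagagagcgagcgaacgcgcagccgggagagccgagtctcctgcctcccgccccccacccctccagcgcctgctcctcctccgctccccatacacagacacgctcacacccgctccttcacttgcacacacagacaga

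Each of the 3 windows holds 4 matches, at 40 to 233 bases before the start in Nr4a1, 111 to 200 in Nr4a2 and 147 to 231 in Nr4a3. At least 1 match was present in 17.8% of all 32851 RefSeq windows of this length and 4 or more in 0.137%. Because the 3 genes were picked from a CREB target list after they rose, these shares are background and not a test. The other listed CREB target genes are not shown, so a link between matches and the rise was not tested. The joined palindrome TGACGTCA, in which both cores overlap, was in none of the 3 and in 1.55% of all windows. A match is a description of the letters and not of binding. Of the 9 members, 4 had a window in the table: Adcy4 held no match, Gnas at most 1 in any of its 4 windows, Prkaca at most 2 and Adrb1 1.

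With the replicate block, 7 of the 76 genes were called for propranolol, 6 higher and 1 lower. Beside the 4 above these were the circadian gene Per1 (0.78, SE 0.18) and the PKA regulatory subunit gene Prkar2b (1.10, SE 0.24), both higher, and the phosphodiesterase gene Pde4b, which breaks down cAMP (fell by 1.00, SE 0.26, edgeR adjusted p = 0.0455). In the background 2.95% of all genes were called higher and 1.25% lower in this fit. Nr4a1 was also called for WT+P vs WT with the block (2.71, SE 0.40, edgeR adjusted p = 0.0366). That call was lost without the library labelled WT replicate 1 (3.07, edgeR adjusted p = 0.222), and for propranolol averaged over genotypes the blocked fit called only the 3 NR4A genes, against 0.35% of all genes.

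With rapamycin averaged over genotypes 8 of the 76 were called, 2 higher and 6 lower (2.24% and 3.05% of all genes). The adenosine receptor gene Adora2a, which couples to Gnas, was at 13.2–21.9 CPM in WT and at 0.716 and 1.117 CPM in WT+R, and at 5.23–8.60 CPM in KO and 0.615–1.25 CPM in KO+R. Its averaged log2 difference was −3.53 (SE 0.31, edgeR adjusted p = 9.86e-05). Pkig, an inhibitor of PKA, was at 252.8–281 CPM in WT and 70.1–102 CPM in WT+R, and fell by 1.38 (SE 0.14). The cAMP-activated exchange factor gene Rapgef4 fell by 0.70 (SE 0.08) and the CREB family gene Crem by 0.72 (SE 0.09). The G protein beta subunit gene Gnb4 (−2.22, SE 0.57) and the phosphodiesterase gene Pde1a (−2.86, SE 0.78) were lower too. The phosphodiesterase gene Pde4a (0.87, SE 0.13) and the PKA anchoring gene Akap7 (0.67, SE 0.11) were higher. With the block 11 were called, against 9.81% of all genes (3.57% higher and 6.24% lower), adding Adora2b and Pde3b (lower) and Sik1 (1.30, SE 0.12, higher). The same 11 were called with the block when the library labelled WT replicate 1 was left out, and without the block Gnb4 (edgeR adjusted p = 0.0632) and Pde1a (edgeR adjusted p = 0.0528) were lost and Sik1 was gained.

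By genotype, Adora2a, Pkig, Rapgef4 and Crem were called lower in both KO+R vs KO (4 called, against 1.51% of all genes) and WT+R vs WT (6 called, with Pde4a and Akap7 higher, against 1.4%). Leaving out the library labelled WT replicate 1, Pde4a and Crem lost their calls in WT+R vs WT (edgeR adjusted p = 0.0871 and 0.0531), and with the block Pde4a alone did. With the block Gnb4 (lower) and Pde4a, Akap12 and Sik1 (higher) were added in KO+R vs KO. Sik1, a kinase that restrains CREB coactivators, was at 16.5–47.9 CPM in WT and 39.4–129 CPM in WT+R. With all 16 libraries edgeR called Sik1 only with the block, whereas DESeq2 also called the average over genotypes without the block (adjusted p = 0.00566). For KO vs WT averaged over treatments, 3 of the 76 were called, against 1.76% of all genes: Rapgef4 higher (0.65, SE 0.07), and Pde4a (−0.62, SE 0.11) and the inhibitory G protein gene Gnai1 (−0.65, SE 0.15) lower. With the block 8 were called, against 4.47%, adding Adora2a, Adora2b, Ptger4 and Pde4b (lower) and Nr4a1 (higher). Without the library labelled WT replicate 1 the 3 were called again, with Nr4a1 added, and in the blocked fit Pde4b was lost and Pde2a gained. Without the block, edgeR called none of the 76 for KO vs WT, KO+P vs KO or WT+P vs WT, although 8, 13 and 14 had an unadjusted p under 0.05 (6.07%, 12.6% and 9.87% of all genes did), and DESeq2 called 1, 5 and 3 (0.431%, 1.11% and 0.802% of all genes).

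Across the 16 libraries, the gene whose log2 CPM pattern was most like that of a member was Tc2n for Arrb1 (Pearson r = 0.965), Preb for Adcy4 (0.959), Tacr3 for Adrb3 (0.966), Coa8 for Gnas (0.948), Gm45819 for Grk2 (0.947), Tcf7l2 for Prkaca (0.912), Ncbp2 for Arrb2 (0.884) and Hif1an for Adcy6 (0.834). The points share replicate numbers and treatments, and the values are descriptions.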

How the data were processed

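Poly(A) RNA was sequenced unstranded in 16 libraries. The authors deposited Salmon transcript tables with expected counts and TPM (per the labels, Salmon 1.5.2, GRCm39). Each count was summed per gene with GENCODE names (99.12% of 140789 transcripts) and rounded. All 16 libraries were fitted in 1 model with a mean per group (edgeR 4.0.16, quasi-likelihood, TMM, filterByExpr, in R 4.3.3), with DESeq2 1.42.0 as an alternative. The script was run on simulated data without replicate effects, which cannot check the calls that depend on the replicate block.

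The labels call the samples biological replicates. Same-numbered libraries deviated together from their group means (r of 0.189 to 0.693 in the 5 pairwise comparisons), so blocked values are given where they change a call. Over all groups, same-numbered pairs had r of 0.0323 to 0.693 (median 0.519). Differently numbered pairs had r of −0.693 to 0.395 (median −0.230), so the ranges overlap. The pairing comes from these values, not from the labels.

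Members and lists were chosen with earlier results of these data known. Log2 differences are printed for members with an unadjusted p under 0.05 without or with the block, or given as ranges, and for other pathway genes that were called. Genes sharing exons on either strand are uncertain, since strand was not kept.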

Additional observations from a re-analysis of the deposited data

How the results depend on the processing

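No member was called for KO vs WT, and Arrb1 alone was called for rapamycin averaged over genotypes, under every alternative run (Arrb1 in 29 of 29, log2 difference −2.23 to −1.75). The other calls depended on the settings. With the replicate block 1 member was called for WT+R vs WT and 2 for propranolol averaged over genotypes. DESeq2 gave 1 and 2, DESeq2 with the block 1 and 2, with no filter on low counts 1 and 1, and with an effective length offset 1 for WT+R vs WT. DESeq2 with the block called 1 for KO+P vs KO. Over all 6 groups DESeq2 called 2 members, and 4 with the block. Both DESeq2 and the block also called more of all genes in these comparisons, as listed below. For WT+R vs WT with no filter or with the length offset, the count over all genes is not given. With replicates 2 and 3 only, chosen after seeing the data, 0 were called for KO+R vs KO and 0 over all 6 groups. Leaving out 1 library at a time gave 0 to 1 members for KO+P vs KO (1 without KO+P replicate 3), 0 to 0 for KO+R vs KO, 0 to 1 for WT+P vs WT and for propranolol averaged, and 0 to 2 over all 6 groups. It took Adcy4 in WT+P vs WT from −0.00091 (without WT+P replicate 1) to 1.37 (without WT+P replicate 2). Where this left 1 library in a group, that library was assumed to vary like the other groups. For the fits without 1 library only the ranges over all genes are listed below, so a member call in a single fit has no share beside it. For replicates 2 and 3 only, the count over all genes is not given. The causes of these changes were not tested.

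Counts over all genes are given in the order propranolol in WT cells, propranolol in KO cells, rapamycin in WT cells, rapamycin in KO cells, KO vs WT, and the averages for propranolol, rapamycin and genotype, then any difference among the 6 groups. They were 1, 1, 207, 224, 1, 235, 785, 261 and 1139. With the replicate block they were 12, 21, 677, 739, 27, 622, 1456, 663 and 3439. DESeq2 gave 119, 164, 542, 473, 64 and 835 for the first 6, 550 for genotype averaged and 3041 over all groups, and with the block 157, 933, 978, 1123, 396, 1292, 1670, 892 and 5742. With the block and without WT replicate 1 the count was 0 for propranolol and 408 for rapamycin in WT cells, 66 for KO vs WT, 52, 1233 and 733 for the averages, and 2796 over all groups. No filter on low counts gave 36 and 52 for propranolol in WT and KO cells, 5 for KO vs WT and 512 for propranolol averaged, and the length offset gave 2 for propranolol in WT cells and 2 for KO vs WT. For the interactions with genotype edgeR called 0 with and without the block (at an unadjusted p under 0.05, 107 genes for propranolol and 113 for rapamycin, and 422 and 287 with the block), DESeq2 1 for rapamycin, and DESeq2 with the block 2 for propranolol and 7 for rapamycin. Leaving out 1 library at a time gave 0 to 554, 1 to 332, 25 to 140, 51 to 87, 0 to 2, 21 to 1340, 424 to 697, 88 to 288 and 597 to 1983. Depth limits the receptor genes, where Adrb1 had at most 8 counts in a library.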
